A study of Mus musculus with 4 samples.

Results

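Methylated DNA in sperm of T2D founder mice was compared with that of control founders, peak by peak, on the 19 autosomes. A peak is an interval in which sequenced tags are denser than the local background. A T2D peak and a control peak were paired when they overlapped by at least 1 bp and neither touched a further peak of the other list. This gave 121309 one-to-one pairs, out of 175523 autosomal peaks in control sperm and 176823 in T2D sperm. The 4 lists of the series, which include offspring islets, hold 690963 peaks in all.

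DNA methylation in mammals sits mainly on the cytosine of CpG pairs and is recovered in MeDIP-seq with an antibody against 5-methylcytosine, so a peak marks a stretch with many methylated cytosines and not a methylation level at single bases. Sperm DNA carries dense methylation over repeats and gene bodies and little over most CpG-rich promoters. After fertilisation most of the paternal methylation is erased, with imprinted regions and some repeats among those that keep it. A father's sperm is therefore a place where a lasting mark of his metabolic state is looked for.

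The mice were of the outbred ICR strain. T2D founders were weaned at 3 weeks onto HFD (rich in fat, which supplied 33% of its energy), received a low dose of STZ (streptozotocin, which is toxic to insulin-producing beta cells) by intraperitoneal injection at 12 weeks, and stayed on the diet for 4 weeks. Males with a fasting glucose of 7 to 11 mM counted as T2D, so diet, STZ and glucose cannot be told apart in this group. Control founders were kept on control diet, and the labels name no injection for them. Sperm was taken from the caudal epididymis of 6 founders a group at 16 weeks and passed through a somatic cell lysis step. Pancreatic islets of 3-week-old offspring, from 6 animals for each kind of father, serve below as a second tissue. Each group is represented by 1 library, and whether DNA of the 6 animals was pooled is not stated in the labels. There are no replicates, so differences are described without a test. Intervals of tag ratios cover counting error at most, since PCR copies are not independent molecules. Intervals of shares, medians and peak counts treat peaks as independent, which peaks of shared libraries are not. Neither kind covers the spread between libraries. The libraries held 31053754 unique tags in control and 31833988 in T2D sperm. The tissue label was not checked against marker regions, since no annotation of the mm9 build was used here, and for the same reason no gene is named.

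Most of the signal within peaks was found in both libraries at the same places. The pairs took in 69.1% of the control and 68.6% of the T2D peaks, and 75.4% and 75.5% of the tags that fell in peaks. Of all unique tags of the library, the pairs held 26.7% in control and 26.0% in T2D sperm, and autosomal peaks as a whole held 35.4% and 34.5%. Peaks without a partner numbered 52636 in control and 53918 in T2D sperm. They were weaker, with a median of 37 tags in control and 36 in T2D against 56 in the paired peaks of either list. Of the peaks without a partner, 68.9% in control and 70.6% in T2D held fewer than 50 tags, against 40.9% and 40.5% of paired peaks. Marginal overlaps were few: 202 pairs, or 0.167%, shared less than 50% of the narrower peak, and the smallest overlap was 2 bp. On the other side of the rule, 894 control and 837 T2D peaks without a partner lay within 200 bp of a peak of the other list, the closest of them directly adjacent or 2 bp away.

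Paired peaks held nearly the same number of tags in both libraries. The count ran from 21 to 1418 tags in control and from 21 to 1421 in T2D, with a median of 56 in each. Per 1000000 unique tags of the library, the median was 1.80 in control and 1.76 in T2D sperm. The libraries overlapped over nearly their whole range. The median ratio of T2D to control scaled tags was 0.975, which is the ratio that equal tag counts give after scaling (3409 pairs held exactly equal counts), and the summed ratio over all pairs was also 0.975. Pairs spread around this value with an SD of 0.43 on the log2 scale, and 90% lay between 0.600 and 1.59.

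**Figure D1:**
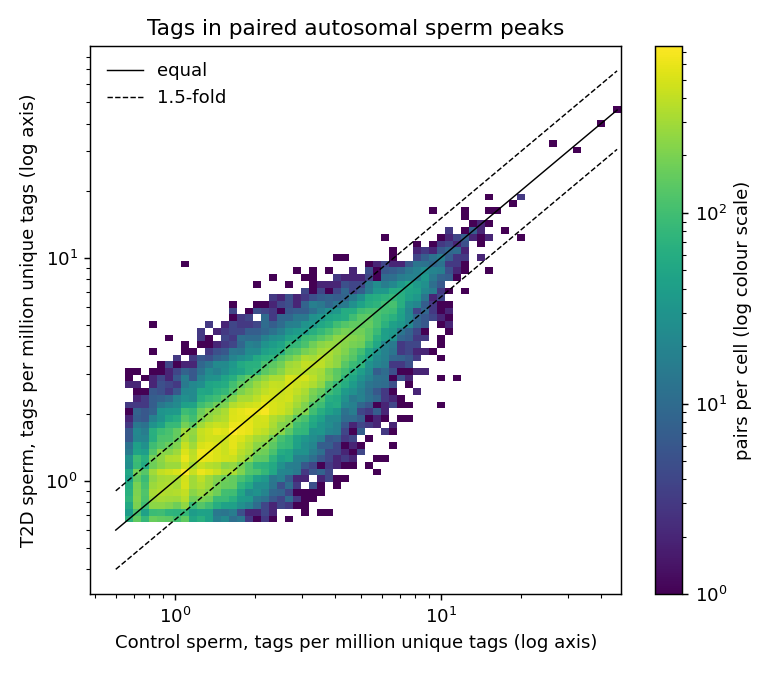
Tags per 1000000 unique tags in control sperm (x axis) and T2D sperm (y axis), both on log axes, for the 121309 paired autosomal peaks; colour gives the number of pairs per cell on a log scale, the solid line marks equal values and the dashed lines 1.5-fold. The pairs form 1 cloud along the line of equal values, and 7.07% lie at or above the upper and 9.04% at or below the lower dashed line.

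Pairs with at least 1.5-fold more scaled tags in T2D sperm numbered 8581, or 7.07% (95% Wilson interval 6.93% to 7.22%) of all pairs. Those with at least 1.5-fold fewer numbered 10962, or 9.04% (8.88% to 9.20%). The small excess of lower pairs depended on the scaling: with tags scaled to the summed tags of the pairs instead of unique tags, 8.34% were higher and 7.69% lower. At 2-fold the shares were 1.23% higher and 1.64% lower. Islet pairs, for which only the second scaling can be made, gave 9.46% higher and 8.94% lower at 1.5-fold. Islet pairs held a median of 45 tags in control and 46 in T2D, so their ratios carry more counting error.

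Much of the difference in tags came with a difference in width. Paired peaks had a median width of 1045 bp in control and 1042 bp in T2D, and the median of T2D over control width was 0.998. Within single pairs, widths nevertheless differed widely, and 90% of pairs had a T2D to control width ratio between 0.583 and 1.69. The T2D peak was at least 1.5-fold wider in 8.81% and at least 1.5-fold narrower in 9.16% of pairs. In islets these shares were 12.1% and 8.03%, so the wider calls leaned towards T2D there. Wider peaks held more tags: the log2 tag ratio and the log2 width ratio correlated at Pearson's r = 0.63 (Spearman's rho = 0.56) across the 121309 pairs, which share both libraries and are not independent. Tags are counted over each peak's own interval, so part of this relation follows from the definition. Of the 8581 pairs with 1.5-fold more tags in T2D, 50.3% were also 1.5-fold wider there, and of the 10962 with fewer tags, 46.3% were also narrower.

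**Figure D2:**
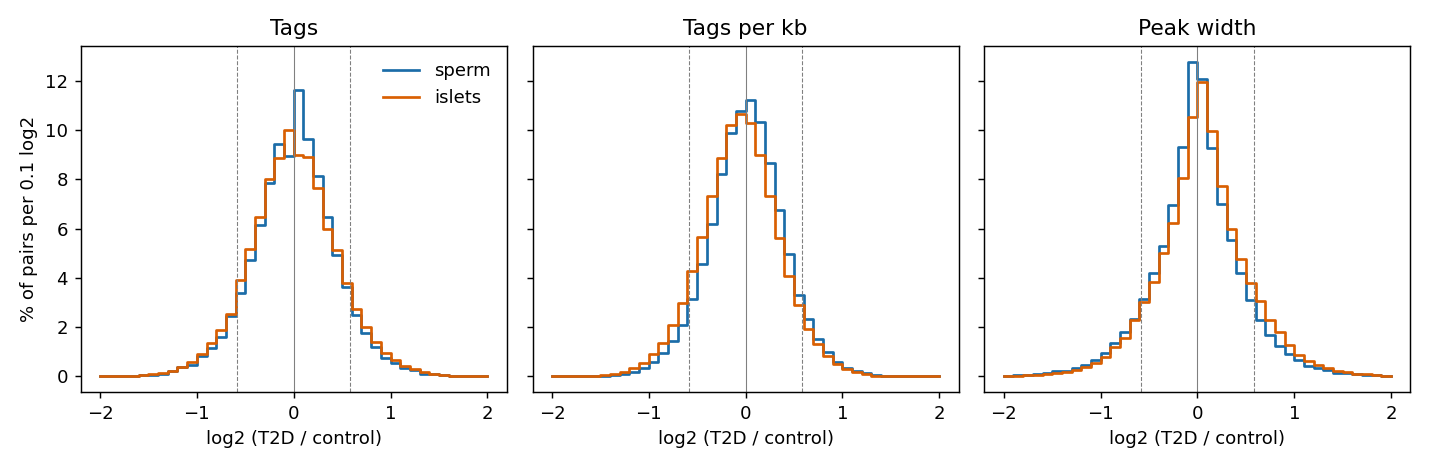
Log2 of T2D over control for tags (left), tags per kb of peak (middle) and peak width (right), as the percentage of pairs per 0.1 log2 unit, in sperm and in islets with tags scaled to the summed tags of each tissue's pairs; dashed lines mark 1.5-fold. Sperm and islet curves are alike in shape, and in the width panel the islet curve lies to the right of the sperm curve (medians of 0.05 and -0.0029).

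Tag density moved against width, which is partly built in, since density is tags divided by the peak's own width. Per kb of peak and 1000000 unique tags, the median density of paired peaks was 1.73 in control and 1.70 in T2D sperm. The median ratio was 0.983, and 90% of pairs lay between 0.628 and 1.53. A density at least 1.5-fold higher in T2D was found in 5.65% and at least 1.5-fold lower in 7.23% of pairs, and at 2-fold the shares were 0.654% and 0.904%. Scaled to the pairs instead, 6.66% were 1.5-fold higher and 6.17% lower, against 5.67% and 9.20% in islets. Where the T2D peak was at least 2-fold wider (2726 pairs, 2.25%), the median log2 tag ratio was 0.80 but the median log2 density ratio was -0.48. Where it was at least 2-fold narrower (2833 pairs, 2.34%), the values were -0.86 and 0.41. In both classes the wider side thus had the higher tags and the lower density by the median, though not in every pair. Tags and density, scaled to unique tags, both passed 1.5-fold in the same direction in 1655 pairs higher in T2D and in 2478 lower. These were 19.3% of the 8581 pairs with more tags and 22.6% of the 10962 with fewer. The overlap was not counted with tags scaled to the pairs.

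In 72814 pairs, 60.02% of all, the narrower peak had more than 80% of the width of the wider one, and differences were smaller. Of these, 3.30% had at least 1.5-fold more and 4.73% at least 1.5-fold fewer tags in T2D sperm. Their log2 tag ratio had an SD of 0.33.

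The spread of the tag ratio was then set against the spread that counting the tags gives by itself. In the 10% of pairs with the fewest tags (42 to 64 in both libraries together) the SD of the log2 ratio was 0.35, below the counting error of 0.39. Both peaks of such a pair had to pass the caller's threshold, which leaves out part of the wider ratios. From the next 10% on the SD exceeded counting error, by 1.24 times at 65 to 75 tags and by 2.25 times in the deepest 10% (240 to 2839 tags), where it was 0.38 against 0.17. For pairs of near-equal width the deepest 10% gave 0.24 against 0.16, or 1.49 times. The islet pairs had much the same excess, with 2.09 times in their deepest 10% and 1.41 times at near-equal width. In sperm, counting error thus fell with depth from 0.39 to 0.17. The SD over all sperm pairs instead rose from 0.35 to 0.46 at 87 to 99 tags and then fell to 0.38. Spread between libraries of the same condition was not tested, since each group has 1.

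**Figure D3:**
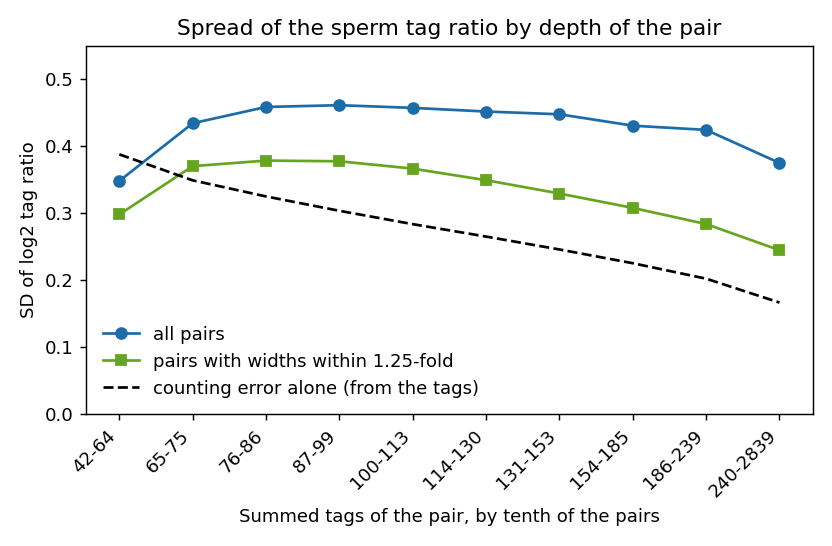
SD of the log2 T2D to control tag ratio in sperm (y axis) for successive 10% of the pairs by summed tags (x axis), for all pairs and for pairs of near-equal width (narrower peak over 80% of the wider); the dashed line is the SD from counting the tags alone. From the second point on both lines lie above counting error, and at the deepest point the values are 0.38, 0.24 and 0.17.

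By the median, the deepest pairs were nearly equal between the libraries. The pair with the most tags lay on chromosome 2, 98506165 to 98507723 in control, with 1418 tags in control and 1421 in T2D, a scaled ratio of 0.978 (95% exact interval 0.908 to 1.053). Its neighbour on chromosome 2, 98502093 to 98504735, held 1264 and 1236 tags, a ratio of 0.954 (0.881 to 1.03). Both intervals include 1. This stretch of chromosome 2 is known for piling up reads in many kinds of sequencing assay. In islets the first pair held 1756 tags in control and 1764 in T2D, and the second 2097 and 1778, the highest counts of both islet lists. The third, on chromosome 15, 74915593 to 74917708, held 980 and 966 tags (ratio 0.962, 0.879 to 1.052). The fourth departed from equality. On chromosome 1, 87487213 to 87491066, control held 804 and T2D 1049 tags, a ratio of 1.27 (1.16 to 1.397), over widths of 3854 and 4140 bp. Among the 100 pairs with the most tags (663 or more in both together), 1 was at least 1.5-fold higher and 2 at least 1.5-fold lower in T2D. Among the 1000 deepest, the numbers were 18 and 39, with a median log2 ratio of -0.06. Their log2 ratios had an SD of 0.28 and ran from -2.06 to 1.32. Over all pairs, 7.07% were at least 1.5-fold higher and 9.04% at least 1.5-fold lower.

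The largest ratios came from wide calls facing narrow ones. Among the 61021 pairs with at least 50 tags in both libraries, the highest ratio was on chromosome 5, 101153871 to 101156776 in T2D, with 195 tags in T2D and 50 in control, or 3.80-fold (2.78 to 5.30). The T2D peak was 2906 bp wide and the control peak 918 bp, and tags per kb differed by 1.20-fold only. On chromosome 13, 44375663 to 44379110, T2D held 239 tags over 3448 bp and control 64 over 766 bp, so the ratio was 3.64 for tags and 0.809 for density. The next 4, on chromosomes 18 (75131810 to 75134268), 8 (47924766 to 47927907), 9 (96625003 to 96627758) and 14 (34748695 to 34751173), had tag ratios of 3.42 to 3.54 and density ratios of 0.889 to 1.16. All 6 thus had a longer interval in T2D, with a density ratio between 0.809 and 1.20.

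The lowest ratios paired a long control interval with a short one in T2D. On chromosome 4, 43457266 to 43460843 in control, the control peak held 310 tags over 3578 bp and the T2D peak 70 over 886 bp, a ratio of 0.220 (0.167 to 0.286) with a density ratio of 0.890. On chromosome 15, 25739743 to 25742956, control held 365 tags and T2D 90, a ratio of 0.241 (0.189 to 0.304) with a density ratio of 1.08. The other 4 lay on chromosomes 14 (76967886 to 76970602 and 99458868 to 99461860), 2 (146007214 to 146010266) and 5 (89651947 to 89655202), with tag ratios of 0.253 to 0.268. Their density ratios ran from 0.888 to 1.53, the last of these in a T2D peak of 508 bp. At 5 of these 12 regions islets had 1 pair. Its counts in control and T2D were 134 and 127 (chromosome 5, 101153993), 50 and 70 (13), 129 and 98 (8), 213 and 174 (4), and 48 and 56 (2), closer to each other than in sperm at each. The 12 regions were picked for extreme sperm ratios, which by itself favours closer counts in islets.

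Regions in which density itself differed were found among the 39379 pairs with at least 50 tags in both libraries and near-equal width. Among the 4 highest in T2D, the closest match in width was on chromosome 3, 120419884 to 120420707, where 824 bp in control and 842 bp in T2D held 64 and 156 tags, or 2.50 and 5.82 scaled tags per kb. Its tag ratio was 2.38 (1.77 to 3.23). In islets the same place held 69 tags in control and 46 in T2D, so the direction was the other one there. The other 3 were chromosome 14, 31922067 to 31923473 (55 and 107 tags, density ratio 2.34), chromosome 4, 104379113 to 104380550 (50 and 93 tags, 2.24) and chromosome 7, 88487205 to 88489014 (54 and 116 tags, 2.22). The last 2 of these also had more tags in T2D than in control islets, with 28 and 46 tags on chromosome 4 and 20 and 29 on chromosome 7. These islet counts are small and no interval was computed for them.

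Lower in T2D, chromosome 3, 126667562 to 126668245, led with 128 tags in control and 53 in T2D over 684 and 747 bp, or 6.03 and 2.23 scaled tags per kb. The tag ratio was 0.404 (0.288 to 0.560), whereas islets held 67 tags in control and 74 in T2D. Chromosome 13, 113636619 to 113637613, held 107 and 52 tags (density ratio 0.396). Chromosome 15, 10209563 to 10210988, held 151 and 79 tags (0.422), and chromosome 2, 32814781 to 32815630, held 117 and 54 (0.426). Control islets also held more tags than T2D islets on chromosome 13 (129 and 99) and on chromosome 2 (103 and 74). On chromosome 15 the islet counts were nearly equal, at 88 and 84. No interval was computed for these islet counts. Over the 63533 places with a pair in each tissue, sperm and islet log2 tag ratios had a Pearson's r of -0.0020. The 8 regions are the extremes of 39379 pairs and have no second library to check them.

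Peak edges varied far more than summits. Start positions differed between the peaks of a pair by a median of 91 bp and end positions by 92 bp, and both edges agreed within 10 bp in 0.862% of pairs. In 24.3% of pairs the control peak lay inside the T2D peak, in 25.6% the T2D peak lay inside the control peak, and in 50.1% the peaks were staggered. The nesting was therefore about even in sperm. In islets it was not, with 30.5% of control peaks inside T2D peaks and 19.9% the other way round. The widest gain in T2D was the chromosome 13 region above, at 2682 bp. The others were chromosome 10, 115016261 to 115019661 (764 bp in control, 3401 bp in T2D), chromosome 11, 95248213 to 95251546 (724 and 3334 bp) and chromosome 16, 96372761 to 96376256 (903 and 3496 bp). The widest losses were chromosome 17, 75570728 to 75574160 (3433 bp in control, 666 bp in T2D), chromosome 1, 184370739 to 184374153 (3415 and 653 bp), the chromosome 4 region above, and chromosome 6, 72094004 to 72097368 (3365 and 718 bp). In 3 of the 4 losses the short T2D peak was 1.498 to 1.74 times as dense as the long control peak.

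Summits, the positions of the highest tag pile-up, lay close together. The median distance between them was 28 bp, against a fragment length of 278 bp in control and 272 bp in T2D as the caller estimated it. In 69.3% of pairs the summits were at most 50 bp apart, in 84.8% at most 100 bp, and in 1271 pairs they fell on the same base. Shifts had no preferred direction, with the T2D summit further along the chromosome in 59958 and less far in 60080 pairs. In 98.7% of pairs each summit lay inside the other peak.

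A minority of pairs had their summits in different parts of the peak. The shift exceeded 200 bp in 10431 pairs (8.60%), 500 bp in 5148 (4.24%) and 1000 bp in 1086 (0.895%). The share of pairs per 20 bp of shift fell from 19.4% next to 0 to 0.106% at 280 to 300 bp, close to the fragment length, and was 0.156% at 340 to 360 bp. Shifts over 200 bp occurred in 0.230% of pairs with a mean width under 750 bp and in 24.5% of those of 2000 bp or more. The classes between had 3.64% (750 to 1000 bp), 9.74% (1000 to 1500 bp) and 19.5% (1500 to 2000 bp). A summit lies inside its own peak, so narrow pairs leave less room for a shift and part of this rise is built in. By number, the class of 1000 to 1500 bp held the most far shifts, 4457 of the 10431, and the widest class 1724. Pairs with such shifts had a median control width of 1443 bp, against 1021 bp for the rest. The largest shift, 3296 bp, was on chromosome 10, where a control peak of 1009 bp (86348094 to 86349102) met the end of a T2D peak of 3160 bp (86344942 to 86348101). Those next in size were 3292 bp on chromosome 11 (72277815 to 72280315 in control), 2606 bp on chromosome 2 (158325531 to 158327882) and 2582 bp on chromosome 7 (146646640 to 146648995). The last had 149 tags in control and 139 in T2D, a ratio of 0.910 (0.717 to 1.15), an interval that includes 1.

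**Figure D4:**
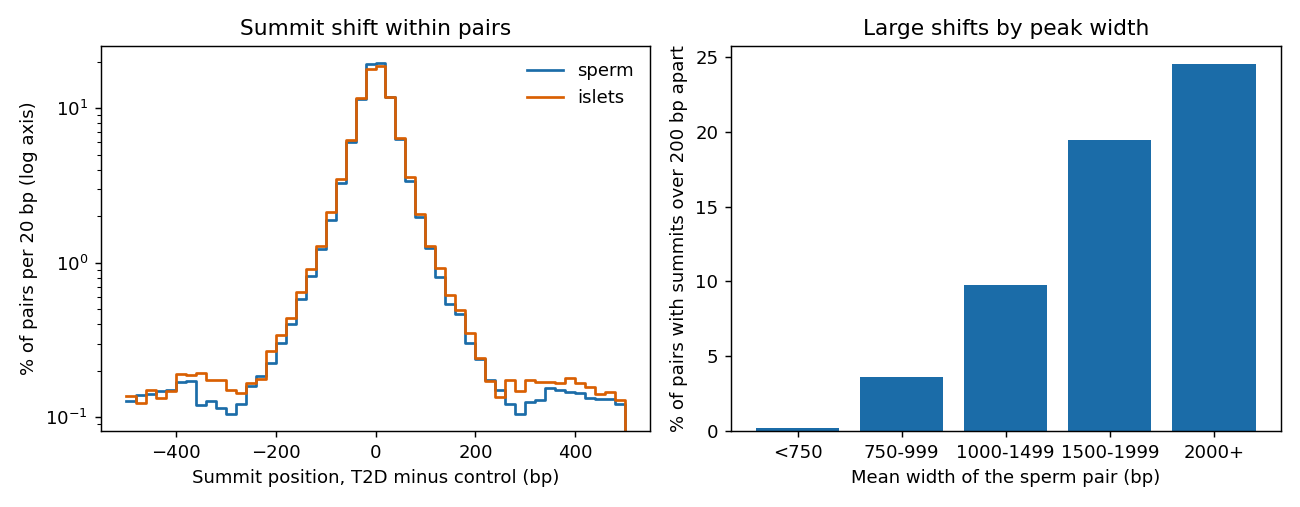
Left, percentage of pairs per 20 bp of signed summit shift (T2D minus control, in bp; log y axis) in sperm and islets; right, percentage of sperm pairs with summits over 200 bp apart, by mean width of the pair. The shift is symmetric around 0, with a median size of 28 bp in sperm, and large shifts rise from 0.230% in the narrowest to 24.5% in the widest class. Narrow pairs leave less room for a shift, so part of the rise is built in.

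Peaks that were whole in one library and divided in the other were rare and balanced. In 512 cases 1 control peak faced 2 T2D peaks, and in 494 cases 2 control peaks faced 1 T2D peak, a ratio of 1.04 (95% exact interval 0.914 to 1.18). A further 39 sets had 2 peaks on each side. No peak faced more than 2. In islets 312 control peaks were split and 528 pairs of control peaks were merged in T2D (0.591, 0.512 to 0.681). Islet pairs were also wider in T2D, with medians of 962 bp against 925 bp in control, and the part of width in that balance was not tested.

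The divided peaks were wide, and their median tags were close on both sides. The single peak had a median width of 1907 bp when split and 1843 bp when merged. Its pieces were separated by a median of 159 bp and 172 bp, less than 1 fragment length. A split control peak held a median of 100 tags against 101 in its 2 T2D pieces together. A merged T2D peak held 96 tags against 97.5 in its control pieces. The median log2 ratio of T2D to control tags was -0.03 over split and -0.05 over merged peaks, near the -0.04 of equal counts. Past 1.5-fold, 40 of 512 split peaks were higher and 19 lower in T2D, and 7 of 494 merged peaks were higher and 48 lower. Over all one-to-one pairs, 7.07% were higher and 9.04% lower. In islets, 48 of 312 split peaks were higher and 12 lower, and 18 of 528 merged peaks were higher and 40 lower. Among the cases past 1.5-fold, the divided side was thus more often the one with more tags, in both tissues. In sperm the share past 1.5-fold was close to that of all pairs on the divided side and below it on the whole side. Each piece had to be called as a peak by itself, and the part of this was not tested. Over all sperm cases, T2D was higher in 240 of 512 split (46.9%) and in 217 of 494 merged peaks (43.9%). The summit of the single peak fell in the piece with more tags in 58.4% of split and 59.1% of merged peaks, and in the gap in 1 case of each.

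The split peak with the most tags lay on chromosome 11, 100306076 to 100309410, with 476 tags in control. Its T2D pieces, 296 bp apart, held 204 and 211, a summed ratio of 0.850 (0.744 to 0.972). On chromosome 8, 49361287 to 49364890 in control held 468 tags and its T2D pieces 184 and 167 with a gap of 27 bp, a ratio of 0.732 (0.635 to 0.842). On chromosome 4, 140057956 to 140061393, the sums were 351 and 352 tags, and on chromosome 17, 45705463 to 45708918, they were 312 and 294, with intervals that include 1. Of the merged peaks, chromosome 7, 4894594 to 4897202 in T2D, led with 298 tags against 120 and 78 in control, a ratio of 1.47 (1.22 to 1.77). It was followed by chromosome 7, 87918576 to 87921772 (271 tags against 204, 1.30), chromosome 15, 99015875 to 99017950 (256 against 277, 0.902), and chromosome 13, 51272743 to 51275961 (254 against 185, 1.34). These 8 were chosen by the tags of the whole peak, which favours the whole peak over its pieces, so their ratios describe the chosen regions only.

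Pairs were alike on every autosome. The summed T2D to control ratio of scaled tags ran from 0.970 on chromosome 15 to 0.980 on chromosome 9, except on chromosome 13, where it was 0.991. Pairs at least 1.5-fold higher in T2D made up between 6.34% (chromosome 4) and 7.80% (chromosome 13), and lower ones between 8.16% (chromosome 13) and 9.83% (chromosome 7). The median summit shift was 27 to 30 bp on all 19.

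Pairs were also grouped by their presence in offspring islets. Of the sperm pairs, 53.0% overlapped a peak in both islet libraries, 12.2% in control islets only, 12.2% in T2D islets only and 22.6% in neither. Pairs found in both islet libraries were deeper, with a median of 66 tags in either sperm library, against 43 in control and 44 in T2D sperm for those in neither. The mean log2 tag ratio in sperm was -0.05 for pairs in both islet libraries, -0.02 for those in control islets only, -0.0073 for those in T2D islets only and -0.0033 for those in neither. These means differ by far less than the SD of 0.42 to 0.45 within each class. Depth differed along with them, and the deepest 10% of all pairs had a mean of -0.06 and the shallowest -0.01; its part in the class means was not tested. Pairs at least 1.5-fold higher in T2D sperm made up 6.26% of those in both islet libraries, 7.80% of those in control islets only, 8.45% of those in T2D islets only and 7.86% of those in neither, against 7.07% of all pairs. Lower ones made up 9.31%, 9.51%, 8.95% and 8.18% in the same order, against 9.04% of all pairs. At 63533 places 1 sperm pair faced 1 islet pair. Across these, the sperm and islet log2 tag ratios had a Pearson's r of -0.0020, while the density levels in control sperm and control islets correlated at 0.44.

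Neighbouring pairs varied almost independently. For pairs less than 2000 bp apart (9159 neighbours) the log2 tag ratios correlated at r = 0.03, and at 10000 to 50000 bp (51497 neighbours) at 0.02. All pairs share the libraries, so these are descriptions. Summed over windows of 1 Mb with at least 20 pairs, the ratio of scaled tags had a median of 0.977 and lay between 0.905 and 1.06 in 90% of 1997 windows. T2D was at least 25% higher in 1 window (0.0501%) and at least 20% lower in 2 (0.1%).

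A few stretches stood out, picked after their values were seen. The highest 1 Mb window was chromosome 2, 177000001 to 178000000, with a ratio of 1.30 (1.21 to 1.39) and 18 of 25 pairs higher in T2D. The islet pairs of this window gave 1.74. Next came chromosome 17, 30000001 to 31000000, just under that limit at 1.248 (1.21 to 1.29) in sperm, with 56 of 79 pairs higher, and at 1.20 in islets. The third highest, on chromosome 12, 14000001 to 15000000, had 1.23 (1.12 to 1.35) in sperm and 1.048 in islets. The lowest was chromosome 14, 15000001 to 16000000, at 0.779 (0.711 to 0.852) with 1.20 in islets. It was followed by chromosome 12, 89000001 to 90000000, at 0.794 with 0.911 in islets, and chromosome 6, 124000001 to 125000000, at 0.818 with 0.992 in islets.

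Windows of 100 kb with at least 3 pairs also used sperm tags scaled to unique tags, under which equal counts give 0.975. T2D sperm was at least 25% higher in 3.04% and at least 20% lower in 6.14% of 17017 windows. At least 3 such windows in a row occurred at 5 places, 2 of them higher and 3 lower in T2D. The longest was on chromosome 17, 30600001 to 31000000. Its 4 windows had ratios of 1.31, 1.48, 1.79 and 1.51, and its tags summed to 3087 in control and 4738 in T2D sperm, a ratio of 1.497 (1.43 to 1.57). T2D was higher in 28 of its 31 pairs, of which 14 (45.2%) passed 1.5-fold and 0 were 1.5-fold lower, against 7.07% and 9.04% over all pairs. The median pair held 84 tags in control and 141 in T2D, with median log2 ratios of 0.52 for tags, 0.35 for density and 0.16 for width. The 20 windows on either side ranged from 0.740 to 1.26 with a median of 0.979. The stretch was picked by its own sperm window ratios. Its share of higher pairs and its contrast with the windows beside it are therefore partly set by that choice. Islets showed the same stretch: 24 of its 24 islet pairs were higher in T2D, with a summed ratio of 1.60, and the run extended there from 30500001 to 31100000. Peaks called in a single sperm library were not more frequent in T2D there, with 9 against 11 in control. Sperm and islets share no library. The number of DNA copies and the density of methylation cannot be told apart in these files. The sperm peaks were called without an input library, and how the islet peaks were called is not stated. How many founders carried the difference was not tested, since each group has 1 library.

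**Figure D5:**
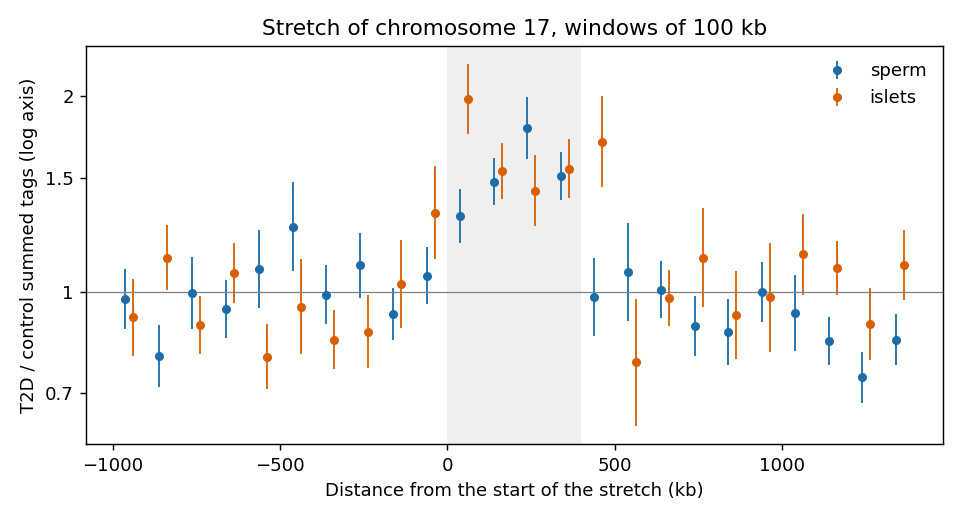
Ratio of T2D to control summed tags (log y axis) in windows of 100 kb along part of chromosome 17, against the distance from the start of the stretch in kb, for sperm and islets; bars are 95% exact counting intervals and the grey band marks the 4 consecutive sperm windows. Sperm ratios of 1.31 to 1.79 in the band, which was picked by these ratios, stand above the 20 windows beside it, which range from 0.740 to 1.26. The islet values in the band are also above 1. Sperm tags are scaled to unique tags and islet tags to the summed tags of the islet pairs.

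The other 4 sperm stretches had islet ratios nearer to 1 or on its other side. Chromosome 4, 55600001 to 55900000, had a ratio of 1.29 (1.18 to 1.399) in sperm, with 19 of 21 pairs higher, and 1.11 in islets. Lower in T2D sperm were chromosome 8, 92900001 to 93200000, at 0.725 (0.658 to 0.798), chromosome 3, 96200001 to 96500000, at 0.751 (0.692 to 0.816), and chromosome 6, 48100001 to 48400000, at 0.759 (0.671 to 0.858). In islets these had tag ratios of 1.06, 1.07 and 1.27, on the other side of 1. In sperm the density ratios were nearer to 1 than the tag ratios, at 0.839 on chromosome 8, 0.911 on chromosome 3, 0.970 on chromosome 6 and 1.16 on chromosome 4. Islet tags were scaled to the islet pairs and sperm tags to unique tags, with median 1 Mb windows of 1.00 and 0.977. This shifts sperm windows towards lower, and sperm runs scaled to the pairs were not counted. With the same limits on their own scaling, the islet lists had 12 runs, 7 higher and 5 lower in T2D, the chromosome 17 run included. Of the islet 100 kb windows, 6.27% were higher and 5.67% lower. At 2 of the others sperm lay nearly as far from 1 on the same side, but with few sperm pairs. On chromosome 2, 176800001 to 177100000, the ratio was 1.75 in islets and 1.65 over 2 sperm pairs, and on chromosome 1, 114300001 to 114600000, it was 0.670 in islets and 0.686 over 3 sperm pairs.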

How the data were processed

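MeDIP-seq peak lists of 2 sperm and 2 islet libraries were used. Per the submitters' processing notes, the build was mm9 and CASAVA 1.4 was used. Per the file headers of the sperm lists, the authors called peaks with MACS on 49 bp tags with no input or control, using 1.00e-05 as the p-value cutoff, with at most 2 tags per position. The islet lists have no such header, and the sources used here do not give their caller and depth. The deposited tag counts are whole numbers per peak. The deposited score (a p-value on a negative log10 scale, times 10, at least 50) was used only to take the best 50% of a list. The deposited fold enrichment, a ratio to the caller's background, was not used. Widths and summits are in bp, per the file headers.

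Peaks of the 19 autosomes were paired by overlap in numpy 2.4.6 and pandas 2.3.3, and the 123438 overlaps agreed in number with bedtools 2.31.1. Sperm tags were divided by the unique tags in the headers, times 1000000. Islet tags were divided by the summed tags of the islet pairs. Shares carry Wilson intervals and tag ratios exact binomial intervals at 95% (scipy 1.17.1). Counting error of a log2 ratio was taken from the reciprocal of the tags. Pairing was tested on simulated lists with planted pairs, splits and merges. Named regions are the 4 pairs with most summed tags, the 6 highest and 6 lowest tag ratios with at least 50 tags in both, the 4 highest and 4 lowest density ratios among these with near-equal widths (narrower over 80% of the wider), the 4 largest width gains, losses and summit shifts, and the 4 split and 4 merged peaks whose single peak held most tags. Windows of 1 Mb and 100 kb were added after the data were seen. The members, rules and measures were chosen with earlier results of these data known.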

Additional observations from a re-analysis of the deposited data

Results flagged for a closer look

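For 4 summaries the T2D to control contrast had nominally opposite signs in sperm and in offspring islets. Each group has 1 library, and these differences were not tested. The number of split minus merged peaks was 18 in sperm and -216 in islets. The sperm ratio of 1.04 has an interval of 0.914 to 1.18, which includes 1. That interval treats peaks as independent and leaves out the spread between libraries. The median log2 width ratio was -0.0029 in sperm, with an interval that reaches 0, and 0.0471 in islets. The other 2 signs depend on scaling tags to the pairs of each tissue. Scaled in this way, the median log2 tags-per-kb ratio was 0.0128 in sperm and -0.0534 in islets, and the median log2 tag ratio was 0.0012 in sperm and -0.0136 in islets. Scaled to unique tags, the sperm medians were -0.02 for tags per kb and -0.04 for tags, on the same side of 0 as in islets. In both tissues the tag median is the value that equal counts give under that scaling.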

How the results depend on the processing

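Scaling tags to the summed tags of the pairs turned the median log2 tag ratio from -0.04 to 0.0012 and the median log2 density ratio from -0.02 to 0.0128, with 8.34% of pairs 1.5-fold higher and 7.69% lower. Scaling to total tags gave a median of -0.0348. A reciprocal overlap of 50% left 5.69% higher and 7.58% lower, and, since 2 pieces can hardly each meet it, 0 split and 0 merged peaks. The best 50% of each list gave 54818 pairs, 37 split and 30 merged peaks, 4.47% higher, 6.87% lower, a density median of -0.0344 and a summit shift of 25 bp. Pairs whose narrower peak had over 80% of the wider one's width gave 3.30% higher and 4.73% lower. At least 50 tags in both libraries gave 4.12% higher, 6.11% lower and a density median of -0.0328. Including X and Y moved none of the 9 summaries beyond its counting interval or 1.5-fold. No paired analysis was possible because each group has 1 library. Depth limits single pairs most: at 42 to 64 summed tags, counting error alone is 0.39 on the log2 scale.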
